A study of Mus musculus with 9 samples.

Results

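RNA sequencing of periosteal skeletal stem cells (P-SSCs) compared cells recovered from a transplanted femur on day 3 with cells of untouched bone. P-SSCs were sorted from the periosteum, the membrane on the outer surface of bone, as CD45-Ter119-CD31-CD51+CD200+ cells. All mice were wild-type C57BL/6J. Steady-state P-SSCs (day 0) came from bones that were not transplanted, and graft P-SSCs from donor femurs that had lain under the skin of the back of recipient mice for 3 days. The comparison rests on 6 of the 9 libraries of the series, 3 of each kind, and the other 3 hold marrow stromal cells. Each library held RNA of different mice, in some cases of more than 1 mouse, and replicate 2 of the steady-state cells carries a pooled label. The labels give no marker that tells donor from recipient cells and no bone kept for 3 days without transplantation, so the time, the surgery and the new site cannot be told apart. Of the 8329 genes in the table, 1808 were compared, those with 1 FPKM or more in 3 or more of the 6 libraries. Of the genes compared 1684 are protein-coding. An FPKM is a fragment count corrected for the depth of the library and the length of the gene, so levels of different genes can be set side by side.

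The periosteum holds quiescent stem and progenitor cells that divide and build callus after a fracture. Cells moved into a wound or a graft without a blood supply meet low oxygen, plasma proteins and incoming white blood cells. Low oxygen stabilises HIF-1α, which raises glucose uptake and glycolysis. Inflammatory signals act through NF-κB and STAT3 on acute phase proteins and chemokines, and entry into the cell cycle calls for nucleotides, ribosomes and protein folding. The cell cycle, the genes for contacts with the extracellular matrix (ECM) and glutathione metabolism are given here only where they touch other genes.

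Depth was similar in all libraries, with totals of 17759541 to 19756156 fragments in steady-state and 17685244 to 21315438 in graft P-SSCs, and the genes in the table took 13.8 to 14.2% of them. The steady-state libraries detected 2231 to 2466 of the listed genes with at least 1 fragment, and the graft libraries 2771 to 2829. The graft libraries correlated with each other at r of at least 0.979 on log2(FPKM + 1) across the genes compared. P-SSC replicate 3 stood apart from the other steady-state libraries: 212 genes lay at least 2 log2 units from the mean of replicates 1 and 2, 209 of them higher, and 162 of these 209 were at or above the lowest graft library. The same count was 29 for replicate 1 and 71 for replicate 2. Each change below was therefore also computed without P-SSC replicate 3, and with median of ratios scaling of the libraries. A gene that was called in the same direction in all of these fits is said to have held.

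Of 16 genes listed as markers of periosteal skeletal stem cells, only Postn (periostin, a matricellular protein of periosteum) was in the table. Postn, which was not used in the sort, measured 451, 476 and 390.5 FPKM in the steady-state libraries and 782, 829 and 879 FPKM in the graft libraries. Markers of other cells were few in the table and mostly low. Of 14 general markers of blood cells 3 were measured, and they summed to 0 to 2.26 FPKM in steady-state and 3.58 to 4.21 FPKM in graft libraries. Ptprc, which encodes CD45, was at 0, 0 and 0 FPKM in steady-state and 0.311, 0.113 and 0.134 FPKM in graft libraries. Of 18 macrophage and monocyte markers 5 were measured, and their summed level was 18.8 to 74.5 FPKM in steady-state and 38.5 to 96.0 FPKM in graft libraries, most of it from Lyz2 (lysozyme). Erg, an endothelial factor, and Krt1, a keratin of skin, were at 0 or below 0.5 FPKM in all 6 libraries. The nerve sheath markers Mbp, Pmp22 and Sox10 summed to 846 to 1140 FPKM in steady-state and 214 to 223 FPKM in graft libraries, and most of that was Pmp22, which mesenchymal cells also express. Sox10 alone measured 0.524, 1.2 and 8.43 FPKM in steady-state and 0.432, 0.179 and 0.304 FPKM in graft libraries. Both Sox10 and Mbp, given at the end, were highest in P-SSC replicate 3.

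In graft P-SSCs 409 of the 1808 genes were higher and 233 lower than in steady-state P-SSCs (limma, Benjamini-Hochberg adjusted p under 0.05), which is 22.6% and 12.9% of the genes compared and 35.5% in all. Of these, 330 held as higher (18.3%) and 224 as lower (12.4%), 30.6% of all genes together. Changes were large: 141 of the genes that held as higher and 62 of those that held as lower differed by at least 2 log2 units, where a log2 change is the mean of log2(FPKM + 1) in graft libraries minus that in steady-state libraries and understates the change of low genes. All graft libraries lay above all steady-state libraries in 592 genes (32.7%) and below them in 355 (19.6%), together 52.4%. These counts include 65 genes that passed the filter through graft libraries only and 49 that passed through steady-state libraries only. In such genes, wherever they are named below, the direction and the lack of overlap follow from the filter. The median log2 change of all genes was 0.31, and it was 0.13 with median of ratios scaling and -0.10 with quantile normalization, so a list median is read against 0.31. Without P-SSC replicate 3, 39.4% of all genes were called higher and 18.3% lower, and with median of ratios scaling 18.4% and 14.6%. Where a pair of counts is given for a list under one of these fits, the first is of genes called higher and the second of genes called lower. The share of calls that were higher, 63.7%, became 55.8% with median of ratios scaling (333 higher and 264 lower) and 45.5% with quantile normalization (287 higher and 344 lower). As these are bulk libraries, fewer cells of a type and less RNA per cell cannot be told apart.

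**Figure D1:**
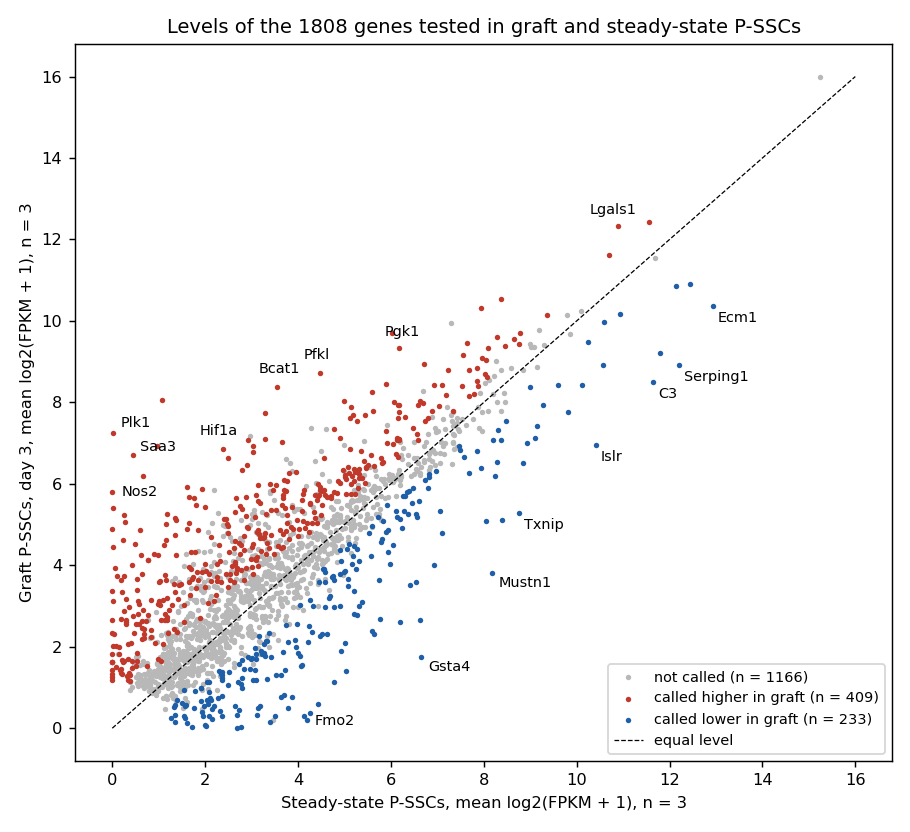
Mean log2(FPKM + 1) of each of the 1808 genes in steady-state P-SSCs (x axis) and graft P-SSCs (y axis), 3 libraries each. Red points are the 409 genes called higher in graft P-SSCs and blue points the 233 called lower, and Saa3, Nos2 and Plk1 lie near 0 on the x axis while Ecm1, Serping1 and C3 lie far below the line of equal level.

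The 2 mitotic genes Plk1 (polo-like kinase 1) and Cdc20 (an activator of the anaphase-promoting complex) are given first, from the cell cycle list. Plk1 had 0.0434, 0 and 0 FPKM in the steady-state libraries, which is 1 fragment in all, and 146, 153 and 151 FPKM in the graft libraries. Cdc20 measured 0.541, 3.66 and 0.306 FPKM in the steady-state libraries and 264, 256 and 271 FPKM in the graft libraries. Neither gene overlapped between the groups, with log2 changes of 7.22 ± 0.18 (SE), adjusted p = 1.40e-05 for Plk1 and 6.97 ± 0.48 (SE), adjusted p = 0.00022 for Cdc20. Plk1 passed the filter through the graft libraries only, so its direction and lack of overlap follow from the filter. Gsta4, a glutathione S-transferase that clears products of lipid peroxidation, went the other way, with 160.4, 111 and 54.4 FPKM in the steady-state libraries and 2.76, 2.29 and 2.14 FPKM in the graft libraries. Its log2 change was -4.88 ± 0.40 (SE), adjusted p = 0.000401.

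Outside the cell cycle, ECM-receptor and glutathione lists, the largest increase was in Saa3, an acute phase apolipoprotein made by many tissues in inflammation. Saa3 measured 0, 1.51 and 0 FPKM in the steady-state libraries and 83.4, 138 and 95 FPKM in the graft libraries, a log2 change of 6.26 ± 0.43 (SE), adjusted p = 0.00022. Its level was at 0 in all but 1 steady-state library, and the lowest graft library lay far above that one. Nos2, the inducible nitric oxide synthase, was listed at 0 in all 3 steady-state libraries and measured 49.4, 52.7 and 61.9 FPKM in the graft libraries. Taking 3 fragments over the steady-state libraries together as the limit for a value of 0, Nos2 was at least 2835-fold higher in graft P-SSCs. Bcat1, the cytosolic enzyme that starts the breakdown of branched-chain amino acids, rose from 11.8 ± 6.53 to 329 ± 3.47 FPKM (mean ± SD, n = 3 and 3), a log2 change of 4.82 ± 0.35 (SE). Fabp5, a carrier of fatty acids, rose from 2.14 ± 0.974 to 60.6 ± 9.42 FPKM, and Crabp1, a carrier of retinoic acid, from 2.75 ± 2.17 to 50.6 ± 6.16 FPKM. In each of these genes all graft libraries lay above all steady-state libraries.

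Of the 15 largest increases that held outside those lists, 6 more work in cell division. Racgap1, a regulator of small GTPases in cytokinesis, measured 1.15, 0 and 2.47 FPKM in the steady-state libraries and 122, 126 and 116 FPKM in the graft libraries. Pclaf, a partner of the replication clamp, rose from 0.0187 ± 0.0325 to 41.8 ± 3.57 FPKM, and Foxm1, a transcription factor of late cell cycle genes, from 0.198 ± 0.19 to 36.9 ± 4.68 FPKM. Dlgap5 of the spindle, Ncaph of condensin and Spc25 of the kinetochore had log2 changes of 4.43, 4.08 and 4.04. Hist1h2ao, a histone H2A gene, rose by 4.78 ± 0.32 (SE) on the log2 scale. It belongs to a family of near-identical copies that reads can be shared between, so its own value is uncertain. Ptx3, a soluble pattern recognition protein, was the least even of the 15: it measured 1.41, 2.7 and 18.8 FPKM in the steady-state libraries and 161, 155 and 38.3 FPKM in the graft libraries (log2 change 4.15 ± 0.92 (SE), adjusted p = 0.0153). Graft replicate 3 lay closer to P-SSC replicate 3 than to the other graft libraries.

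**Figure D2:**
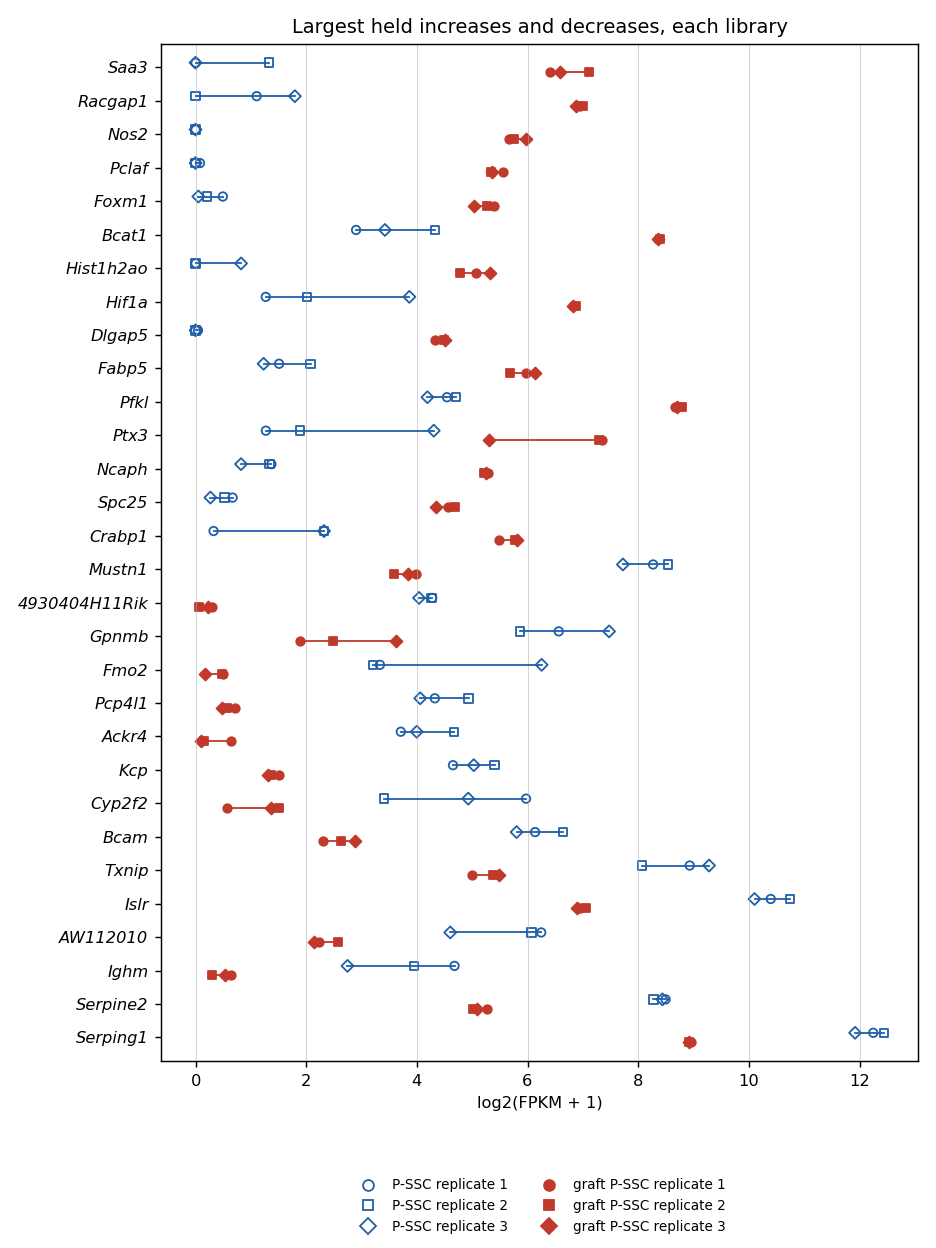
log2(FPKM + 1) in each library for the 15 largest increases (upper rows) and 15 largest decreases (lower rows) that held outside the cell cycle, ECM-receptor and glutathione lists and reached a group mean of 10 FPKM, open blue symbols for steady-state and filled red symbols for graft P-SSCs, with a line over the range of each group. In none of the 30 genes do the groups overlap, and the gap is narrowest for Ptx3, in which graft replicate 3 measured 38.3 FPKM and P-SSC replicate 3 18.8 FPKM.

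Outside those lists the largest decrease was in Mustn1, a small nuclear protein of muscle, tendon and developing bone. Mustn1 measured 308, 372 and 210.4 FPKM in the steady-state libraries and 14.9, 11 and 13.4 FPKM in the graft libraries, a log2 change of -4.37 ± 0.24 (SE), adjusted p = 0.000121. Every graft library was below every steady-state library. Islr, also called meflin and a surface marker of mesenchymal stromal cells, fell from 1384 ± 307 to 124 ± 7.17 FPKM, and Txnip, which binds thioredoxin and holds back glucose uptake, fell from 458 ± 178 to 38.4 ± 6.59 FPKM. Bcam, a receptor for laminin, fell from 74.3 ± 22.4 to 5.15 ± 1.22 FPKM, and Kcp, a secreted modulator of BMP signals, from 32.4 ± 8.62 to 1.64 ± 0.195 FPKM. Ackr4, a receptor that scavenges chemokines, fell from 17.2 ± 6.49 to 0.245 ± 0.269 FPKM, and Gpnmb, a glycoprotein of lysosomes and the cell surface, from 109 ± 61.2 to 6.23 ± 4.57 FPKM. Pcp4l1 fell by a log2 change of -3.85, and 2 genes annotated as lincRNA were among the 15: 4930404H11Rik (-4.00) and AW112010 (-3.33). Ighm, the heavy chain of immunoglobulin M and a marker of B cells, measured 24.6, 14.4 and 5.71 FPKM in the steady-state libraries and 0.567, 0.235 and 0.454 FPKM in the graft libraries. It was lower in every graft library, while the B cell marker Cd79b was at or near 0 in all 6 libraries.

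Of 10 genes for glycolysis and glucose uptake that the table listed, 9 were compared, and 4 rose and 1 fell (44.4% and 11.1%, against 22.6% and 12.9% of all genes, and 4 and 2 without P-SSC replicate 3). The median log2 change was 0.59, against 0.31 for all genes, and 0.81 without P-SSC replicate 3. Slc2a1, the glucose transporter GLUT1, measured 36.8, 32.7 and 24.1 FPKM in the steady-state libraries and 257, 256 and 274 FPKM in the graft libraries. Pfkl, a phosphofructokinase that commits sugar to glycolysis, measured 22.3, 25.1 and 17.3 FPKM in the steady-state libraries and 402, 444 and 415 FPKM in the graft libraries. Pgk1, which makes the first ATP of the pathway, measured 72.6, 75.7 and 65.5 FPKM in the steady-state libraries and 611, 661 and 652 FPKM in the graft libraries, and Pgam1, which acts on the next step, 57.5, 66.2 and 53.8 FPKM in the steady-state libraries and 330, 364 and 346 FPKM in the graft libraries. In these 4 genes, which act at entry, commitment and the later steps, the replicates of each group lay close together and the groups far apart. The log2 changes were 3.05 ± 0.18 (SE), adjusted p = 0.000121 for Slc2a1, 4.24 ± 0.17 (SE), adjusted p = 5.12e-05 for Pfkl, 3.15 ± 0.12 (SE), adjusted p = 5.12e-05 for Pgk1 and 2.54 ± 0.13 (SE), adjusted p = 0.000109 for Pgam1. Not all sugar metabolism moved in this way: Tkt, the transketolase of the pentose phosphate pathway and the most abundant of the other members, measured 168, 162 and 95.8 FPKM in the steady-state libraries and 120.1, 117 and 123 FPKM in the graft libraries and did not pass the test with all 6 libraries (log2 change -0.20 ± 0.23 (SE), adjusted p = 0.542), while without P-SSC replicate 3 it was called lower (-0.45, limma adjusted p = 0.00619). Pdk4, a kinase that keeps pyruvate out of the citric acid cycle, was the member that fell and was named after its value was seen, with a log2 change of -1.98 ± 0.57 (SE), adjusted p = 0.037. Its call was lost with voom (adjusted p = 0.0656).

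All 9 hypoxia-responsive genes in the table were compared, and 6 rose and none fell (66.7% and 0%). None fell at an unadjusted p under 0.05 in limma. None was called lower (adjusted p under 0.05) with limma's voom on the fragments recovered from the FPKM. Without P-SSC replicate 3, 7 were called higher and 2 lower, the latter Bnip3l and Trf (transferrin). All 6 held, and the median log2 change was 2.16. Slc2a1 and Pgk1, described above, are in this list too. Hif1a, the oxygen-sensitive subunit of the factor itself, measured 1.41, 3.04 and 13.6 FPKM in the steady-state libraries and 113, 116 and 113 FPKM in the graft libraries. P-SSC replicate 3 lay above the other steady-state libraries and still far below each graft library, and the log2 change was 4.46 ± 0.63 (SE), adjusted p = 0.00282. Angptl4, a secreted inhibitor of lipoprotein lipase, measured 41.2, 45.9 and 139 FPKM in the steady-state libraries and 763, 854 and 894 FPKM in the graft libraries, again with P-SSC replicate 3 between the others and the graft libraries. Hmox1, the haem-degrading enzyme, rose from 48.5 ± 6.66 to 220 ± 25.9 FPKM, and P4ha1, a subunit of the enzyme that hydroxylates collagen, from 59 ± 6.92 to 158 ± 10.4 FPKM. Bnip3l, a mitophagy receptor, did not pass the test with all 6 libraries, at 132, 135 and 103 FPKM in steady-state and 108, 109.7 and 106 FPKM in graft libraries (log2 change -0.18 ± 0.15 (SE), adjusted p = 0.372). Without P-SSC replicate 3 its log2 change was -0.31 (limma adjusted p = 0.0279).

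The core of the hypoxia response element, which HIF-1 binds, reads ACGTG. The promoters of 4 of the genes that rose are shown because they hold this core, in capitals on either strand, within 250 bases before and 50 after the start of the gene (RefSeq, GRCm38.p6, 5′ to 3′ on the strand of the gene). All 4 genes lie on the plus strand, Pgk1 at chrX:106186850-106187149, Slc2a1 at chr4:119108495-119108794, Pgam1 at chr19:41911621-41911920 and P4ha1 at chr10:59323046-59323345.
Pgk1: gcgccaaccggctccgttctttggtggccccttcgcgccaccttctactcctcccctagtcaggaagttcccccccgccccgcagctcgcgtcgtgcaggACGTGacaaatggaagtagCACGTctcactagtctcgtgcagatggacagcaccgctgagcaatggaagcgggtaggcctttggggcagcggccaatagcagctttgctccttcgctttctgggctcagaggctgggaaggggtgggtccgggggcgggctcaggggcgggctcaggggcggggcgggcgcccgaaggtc
Slc2a1: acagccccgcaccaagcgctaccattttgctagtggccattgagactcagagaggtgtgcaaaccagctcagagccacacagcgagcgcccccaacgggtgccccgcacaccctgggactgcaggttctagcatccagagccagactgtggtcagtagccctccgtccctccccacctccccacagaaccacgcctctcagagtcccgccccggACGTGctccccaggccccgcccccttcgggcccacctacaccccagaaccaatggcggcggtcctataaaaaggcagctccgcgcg
Pgam1: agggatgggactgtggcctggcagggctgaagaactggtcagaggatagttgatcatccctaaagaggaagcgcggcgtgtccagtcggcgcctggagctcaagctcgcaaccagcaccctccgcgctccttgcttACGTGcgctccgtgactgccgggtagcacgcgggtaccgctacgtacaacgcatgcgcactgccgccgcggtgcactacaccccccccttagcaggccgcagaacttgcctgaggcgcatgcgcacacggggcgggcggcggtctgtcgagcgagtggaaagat
P4ha1: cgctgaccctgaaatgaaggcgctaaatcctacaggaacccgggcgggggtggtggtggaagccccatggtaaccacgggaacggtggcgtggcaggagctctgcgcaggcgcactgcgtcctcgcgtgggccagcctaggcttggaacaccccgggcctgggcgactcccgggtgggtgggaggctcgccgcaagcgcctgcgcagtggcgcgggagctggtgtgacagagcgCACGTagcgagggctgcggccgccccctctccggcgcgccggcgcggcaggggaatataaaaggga
The Pgk1 promoter holds 2 matches, which begin at -150 and -131 from the start, and the others 1 each, at -36 in Slc2a1, -114 in Pgam1 and -16 in P4ha1. The same letters, which are also part of the E-box CACGTG, stand in 19.6% of all 32851 promoters of this length. Of the 8 genes of the glycolysis and hypoxia lists that rose, Angptl4 and Hmox1 had no promoter in the RefSeq table. The windows of Pfkl and Hif1a, which hold 0 and 3 matches, lie 276 and 6492 bases from the start of the gene in the data table and are not shown. The RefSeq start of Slc2a1 lies 34 bases from the start of the gene in the data table. Only 74.6% of the genes compared had a promoter in the table, so no share was computed for the genes that changed.

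Idh2, the mitochondrial isocitrate dehydrogenase that yields NADPH and is also in the glutathione list, measured 31, 41.5 and 81 FPKM in the steady-state libraries and 307, 280.4 and 327 FPKM in the graft libraries, and Me2, the mitochondrial malic enzyme, 3.28, 3.17 and 8.4 FPKM in the steady-state libraries and 31.1, 32.7 and 30.8 FPKM in the graft libraries. Both rose, by 2.67 ± 0.34 and 2.56 ± 0.35 (SE) on the log2 scale, and they were 2 of the 3 genes of the citric acid cycle compared (66.7%, against 22.6% of all genes). Of 19 genes for nucleotide, serine, one-carbon and polyamine synthesis that the table listed, 17 were compared, and 11 rose and none fell (64.7% and 0%, median log2 change 0.94), 10 of which held. None fell at an unadjusted p under 0.05 in limma, none was called lower with voom, and 1, Oaz1, was called lower without P-SSC replicate 3. Mthfd2, a mitochondrial enzyme that supplies one-carbon units, measured 10.3, 8.48 and 24.9 FPKM in the steady-state libraries and 76.1, 73.2 and 79.9 FPKM in the graft libraries. Cmpk1, a kinase of pyrimidine nucleotides, rose from 12.7 ± 4.76 to 67.1 ± 7.68 FPKM. Hprt, which salvages purines, rose from 38.7 ± 3.59 to 74.7 ± 6.25 FPKM, and Upp1, which splits uridine, from 0.476 ± 0.825 to 15 ± 1.47 FPKM. Mthfd1 and Amd1 rose as well, with log2 changes of 1.03 and 0.92.

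Of 23 genes for fatty acid oxidation, lipid storage and apolipoproteins that the table listed, 19 were compared, and 3 rose and 3 fell (15.8% each, against 22.6% and 12.9% of all genes, median log2 change -0.17, and 6 and 5 without P-SSC replicate 3). Fabp5 and Angptl4 were among those that rose. Lpl, the lipoprotein lipase that Angptl4 inhibits, measured 164, 110.2 and 95.8 FPKM in the steady-state libraries and 13.4, 16.9 and 15 FPKM in the graft libraries, and Bdh2, a short-chain dehydrogenase, 112, 113 and 63.1 FPKM in the steady-state libraries and 9.91, 10.7 and 12.3 FPKM in the graft libraries. Both were lower in every graft library than in any steady-state library. Among 8 genes for sterol and fatty acid synthesis compared, 1 rose and 1 fell (12.5% each, against 22.6% and 12.9% of all genes). Without P-SSC replicate 3, 2 of them were called higher and 4 lower, where 39.4% and 18.3% of all genes were. Acsl4, which activates arachidonic acid, rose from 1.98 ± 1.4 to 10.6 ± 1.08 FPKM, and Scd1, the stearoyl-CoA desaturase, fell from 25.7 ± 10.8 to 8.24 ± 1.05 FPKM.

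Genes of the respiratory chain and mitochondrial transport rose and fell at shares near those of all genes: of 37 that the table listed, 26 were compared, and 7 rose and 5 fell (26.9% and 19.2%, against 22.6% and 12.9%, median log2 change 0.01). Of these, 3 held as higher and 5 as lower. Among those that fell were transcripts of the mitochondrial genome. mt-Co1, a subunit of cytochrome c oxidase, measured 374, 303 and 267 FPKM in the steady-state libraries and 96, 78.7 and 103 FPKM in the graft libraries, and mt-Nd2, a subunit of NADH dehydrogenase, 55.9, 52.9 and 48.1 FPKM in the steady-state libraries and 9.86, 13.8 and 11.2 FPKM in the graft libraries. The transfer RNA mt-Tm fell as well, with the carriers Slc25a27 and Slc25a21 (log2 changes -1.68, -1.01 and -1.93, the last 3 named after their values were seen). The call of mt-Tm rests on 3, 4 and 7 fragments in the steady-state libraries and 0, 0 and 2 in the graft libraries, and with voom it was not called (adjusted p = 0.0625). mt-Co1, mt-Nd2 and mt-Tm were all the mitochondrial transcripts compared. Some nuclear genes for import into mitochondria rose. Timm23, a channel of the inner membrane, rose from 70.9 ± 6.53 to 217 ± 6.65 FPKM, and Tomm40, the channel of the outer membrane, measured 2.57, 2.1 and 48.7 FPKM in the steady-state libraries and 112, 124 and 126 FPKM in the graft libraries, with P-SSC replicate 3 between the groups. Uqcrq of the cytochrome bc complex rose by 0.86 ± 0.23 (SE) on the log2 scale and did not hold. Of 9 genes of the mitochondrial ribosome compared, 1 rose and none fell (11.1% and 0%), and none held. Without P-SSC replicate 3, 2 of them were called higher and 2 lower.

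**Figure D3:**
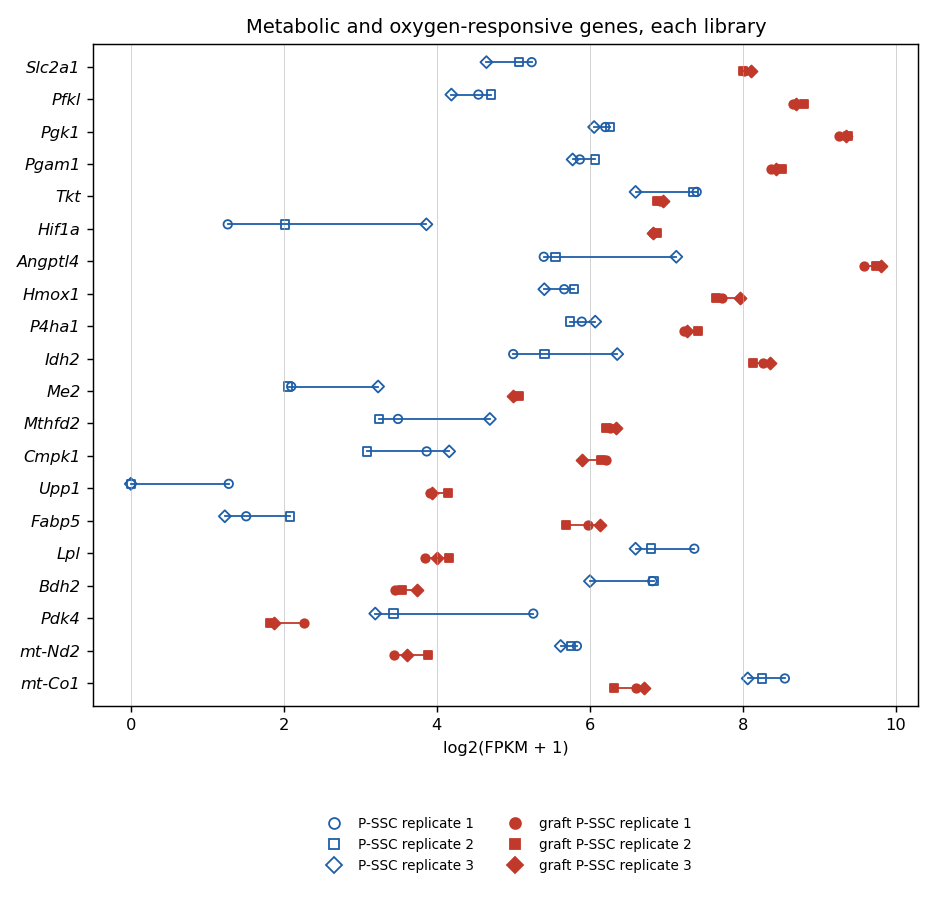
log2(FPKM + 1) of 20 genes of sugar, oxygen, nucleotide and lipid metabolism and mitochondria in each library, open blue symbols for steady-state and filled red symbols for graft P-SSCs, with a line over the range of each group. The graft libraries lie together, above the steady-state libraries in the upper rows (Tkt excepted) and below them for Lpl, Bdh2, Pdk4, mt-Nd2 and mt-Co1.

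Genes for making and folding protein rose more often than they fell. Of 20 genes for ribosome assembly in the nucleolus, all compared, 11 rose and 1 fell (55% and 5%, against 22.6% and 12.9% of all genes, median log2 change 0.72), and 6 held as higher and 1 as lower. Wdr75, which is needed for transcription of ribosomal RNA, measured 13.3, 11.6 and 12.3 FPKM in the steady-state libraries and 52.7, 58.3 and 55.4 FPKM in the graft libraries. Tsr1, which acts in maturation of the small subunit, rose from 8.59 ± 0.657 to 24.9 ± 3.34 FPKM. Noc2l and Ddx51 rose by 3.67 and 2.87 on the log2 scale, and in both P-SSC replicate 3 lay well above replicates 1 and 2. Eif6, which keeps the subunits apart until they are ready, rose from 258 ± 90.3 to 545 ± 18.9 FPKM but did not hold, and Sbds, which helps to release Eif6, fell from 112 ± 4.14 to 71.5 ± 3.76 FPKM.

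Of 81 ribosomal protein and translation factor genes in the table, chosen by the start of their symbols and so with some pseudogenes and kinases, 37 were compared, and 12 rose and none fell (32.4% and 0%, median log2 change 0.44). None fell at an unadjusted p under 0.05 in limma, none was called lower with voom, and 1, Rps27rt, was called lower without P-SSC replicate 3. The largest changes of the list were in translation factors. Eif5a, which helps ribosomes over hard stretches, measured 254, 286 and 491 FPKM in the steady-state libraries and 1436, 1548 and 1449 FPKM in the graft libraries, and Pabpc1, which binds the poly(A) tail, 74.8, 55.2 and 70.2 FPKM in the steady-state libraries and 232, 248 and 290.4 FPKM in the graft libraries. Rpl5 of the large subunit rose from 153 ± 46.6 to 440.2 ± 27.1 FPKM. Of 6 genes for charging transfer RNA, all compared, 4 rose (66.7%, against 22.6% of all genes): Aimp2, Sars2, Farsb and Farsa, with log2 changes of 1.33, 1.25, 0.72 and 0.52. Only Aimp2 and Sars2 held.

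Of 12 genes for folding in the endoplasmic reticulum and the unfolded protein response, all compared, 6 rose and 2 fell (50% and 16.7%, median log2 change 0.99, and 7 and 4 without P-SSC replicate 3). Pdia5, a protein disulphide isomerase, measured 23.6, 29.2 and 27 FPKM in the steady-state libraries and 172, 151 and 166 FPKM in the graft libraries, and Kdelr3, which returns chaperones to the endoplasmic reticulum, 98.6, 119 and 96.6 FPKM in the steady-state libraries and 489, 475 and 518 FPKM in the graft libraries. Neither gene overlapped between the groups. Srprb, Tmx1 and Sec61g, which serve entry and disulphide exchange, rose by 1.16, 1.05 and 1.27 on the log2 scale, and Derl1 by 0.92. Of these, Sec61g did not hold. The 2 that fell were named after their values were seen: Ddit3 (CHOP), the factor through which lasting stress of this compartment can lead to death, measured 38.3, 28.9 and 39.1 FPKM in the steady-state libraries and 13.1, 20.7 and 20.9 FPKM in the graft libraries, and Edem2, which marks misfolded glycoproteins, fell from 190.4 ± 25.4 to 100.3 ± 1.48 FPKM. Of 18 genes for cytosolic chaperones and the proteasome, all compared, 10 rose and none fell (55.6% and 0%, median log2 change 0.54), and 7 held. None fell at an unadjusted p under 0.05 in limma, and none was called lower with voom. Psmd2, a subunit of the proteasome cap, rose from 272 ± 30.5 to 650 ± 18.7 FPKM, Psmd5 from 14.3 ± 9.86 to 66.5 ± 3.27 FPKM, the mitochondrial cochaperonin Hspe1 from 40.5 ± 9.07 to 111 ± 6.45 FPKM and the cochaperone Bag2 from 8.8 ± 4.85 to 46.8 ± 0.517 FPKM. Dnajc2 rose by 2.21 ± 0.62 (SE) on the log2 scale.

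Inflammatory genes rose and fell side by side. Of 16 acute phase and complement genes that the table listed, 10 were compared, and 3 rose and 5 fell (30% and 50%, median log2 change -0.96), all of which held. Saa3 and Ptx3 rose, as did C5ar1, the receptor for the complement fragment C5a, which was listed at 0 in every steady-state library and measured 1.67, 1.68 and 1.67 FPKM in the graft libraries. C5ar1 passed the filter through the graft libraries only, so its direction follows from the filter. The abundant plasma-type proteins went the other way. C3, the central component of complement, measured 3907, 3905 and 2168 FPKM in the steady-state libraries and 374, 425 and 302 FPKM in the graft libraries. Serping1, the inhibitor of the first complement component and of kallikrein, measured 4863, 5567 and 3874 FPKM in the steady-state libraries and 495, 480.1 and 482 FPKM in the graft libraries. Serpine2, an inhibitor of thrombin and urokinase, fell from 338 ± 26.6 to 33.9 ± 3.31 FPKM. In these 3 genes every graft library lay below every steady-state library by a wide margin, with log2 changes of -3.14 ± 0.27, -3.28 ± 0.16 and -3.28 ± 0.14 (SE). Plau, the urokinase itself, and Cd59a, which blocks the membrane attack complex, were the others that fell (-1.67 and -1.91, named after their values were seen).

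The promoter of Saa3 (RefSeq, GRCm38.p6, chr7:46715627-46715926, minus strand) is shown because the gene rose most outside the cell cycle, ECM-receptor and glutathione lists. Capitals mark a match to TTGCNNAA on either strand, the form of a C/EBP site searched for, which begins at -99 from the RefSeq start (24 bases from the start in the data table) and stands in 10.8% of all promoters.
Saa3: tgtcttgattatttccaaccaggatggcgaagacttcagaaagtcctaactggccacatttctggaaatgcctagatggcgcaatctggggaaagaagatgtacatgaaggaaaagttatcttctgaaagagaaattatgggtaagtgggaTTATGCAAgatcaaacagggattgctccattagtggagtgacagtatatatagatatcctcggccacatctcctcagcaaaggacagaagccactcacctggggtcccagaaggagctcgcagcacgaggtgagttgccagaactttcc
Neither of the 2 forms of an NF-κB site that were searched for on both strands, of which the shorter reads GGGANTTCC, has a match in this window, and they stand in 1.63% and 1.68% of all promoters.

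Of 25 genes for chemokines, cytokines and their receptors that the table listed, 13 were compared, and 5 rose and 2 fell (38.5% and 15.4%), 5 and 3 without P-SSC replicate 3 and 4 and 3 with median of ratios scaling. The median log2 change was 0.38, and -0.08 without P-SSC replicate 3. Cxcl2, a neutrophil chemokine, measured 3.39, 2.53 and 2.02 FPKM in the steady-state libraries and 34.8, 30.1 and 20.9 FPKM in the graft libraries, and Cxcl1, which has the same receptor, 209, 137 and 60.8 FPKM in the steady-state libraries and 379.8, 337 and 321 FPKM in the graft libraries. Both rose, but Cxcl1 did not hold: with median of ratios scaling its log2 change went from 1.51 to 1.29 (limma adjusted p = 0.0848). Lif, a cytokine of the interleukin-6 family, rose from 2.21 ± 0.649 to 8.66 ± 1.54 FPKM, and Il13ra1, a receptor chain for interleukins 4 and 13, from 23.3 ± 10 to 56 ± 2.76 FPKM. Ackr3, which scavenges CXCL12, fell from 1124 ± 273 to 343 ± 23.1 FPKM, along with Ackr4. Csf1r, the receptor of macrophage colony-stimulating factor and a marker of macrophages, measured 0.248, 0.407 and 0.835 FPKM in the steady-state libraries and 6.31, 5.93 and 5.57 FPKM in the graft libraries, a log2 change of 2.23 ± 0.23 (SE), adjusted p = 0.000958.

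The other macrophage markers stand beside these results. Adgre1 (F4/80) was at 0, 0 and 0 FPKM in steady-state and 2.75, 0.907 and 2.22 FPKM in graft libraries, and Mrc1 (CD206) at 0, 0 and 0 FPKM in steady-state and 0.593, 0.34 and 0.389 FPKM in graft libraries. Spi1, the factor of the myeloid lineage, was at 0, 0.125 and 0 FPKM in steady-state and 1.76, 0.94 and 1.49 FPKM in graft libraries, and the neutrophil enzyme Mpo at 0, 0 and 0 FPKM in steady-state and 1.09, 0.975 and 1.59 FPKM in graft libraries. These defining markers were at or near 0 in steady-state P-SSCs and low in each graft library. Lyz2 measured 14.2, 71.9 and 51.4 FPKM in the steady-state libraries and 49.4, 25.5 and 84 FPKM in the graft libraries, and H2-Aa, a class II histocompatibility gene, 4.28, 2.21 and 0.451 FPKM in the steady-state libraries and 0.208, 5.8 and 3.82 FPKM in the graft libraries. In both the groups overlapped. The part of macrophages in the changes of Saa3, Nos2, C5ar1 and the chemokines was not tested.

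Of 18 interferon and antigen presentation genes that the table listed, 17 were compared, and 4 rose and 1 fell (23.5% and 5.88%, against 22.6% and 12.9% of all genes, and 6 and 4 without P-SSC replicate 3). Oas1a, which senses double-stranded RNA, measured 12.5, 5.14 and 2.62 FPKM in the steady-state libraries and 52.6, 42.9 and 34.6 FPKM in the graft libraries, and Zbp1, a nucleic acid sensor that can start cell death, 16.4, 11.2 and 4.7 FPKM in the steady-state libraries and 46, 37.9 and 36.6 FPKM in the graft libraries. Oas2 and Slfn9 rose from near 0, with log2 changes of 2.01 and 2.57, and Psme1, an activator of the proteasome, fell from 238 ± 77.7 to 112 ± 5.32 FPKM. Oas1a has close relatives beside it in the genome, so its own value is uncertain. Of 14 immediate early and stress genes 12 were compared, and 2 rose and 1 fell (16.7% and 8.33%), 6 and 2 without P-SSC replicate 3 and 2 and 3 with median of ratios scaling. Tnfaip3 (A20), which damps NF-κB, measured 0.839, 0.75 and 11.1 FPKM in the steady-state libraries and 52.8, 55.9 and 39.8 FPKM in the graft libraries, and Bcl3, a partner of NF-κB dimers, 5.48, 9.69 and 20.9 FPKM in the steady-state libraries and 93, 81.7 and 30.6 FPKM in the graft libraries. Atf3, a stress-induced factor, measured 577, 611 and 271 FPKM in the steady-state libraries and 90.2, 90.8 and 88.8 FPKM in the graft libraries. Thus Atf3 was high at steady state in each library and lower in each graft library, by a log2 change of -2.33 ± 0.32 (SE), adjusted p = 0.00247.

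Among genes of the matrix, several inhibitors of proteases fell. Of 13 matrix protease and inhibitor genes that the table listed, 11 were compared, and 2 rose and 6 fell (18.2% and 54.5%, median log2 change -1.55, 1 and 6 of which held, and 3 and 7 without P-SSC replicate 3). Besides Serping1 and Serpine2, Cst3 (cystatin C, an inhibitor of cathepsins) measured 4150, 3552 and 3019 FPKM in the steady-state libraries and 568, 588 and 619 FPKM in the graft libraries, and Serpinf1, an inhibitor of vessel growth, 5963, 6461 and 4514 FPKM in the steady-state libraries and 1857, 1930 and 1938 FPKM in the graft libraries. All graft libraries lay below all steady-state libraries. Adamtsl2, which binds fibrillin, fell from 14.3 ± 12.7 to 0.233 ± 0.163 FPKM. Serpinb1a, an inhibitor of neutrophil proteases, rose from 80 ± 23 to 198 ± 7.36 FPKM, and the aggrecanase Adamts4 rose but did not hold (log2 change 1.68).

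Of 19 genes for proteoglycans, matricellular and elastic fibre proteins 17 were compared, and 5 rose and 6 fell (29.4% and 35.3%, median log2 change -0.59, and 6 and 9 without P-SSC replicate 3). Ecm1, a secreted binder of matrix proteins and one of the most abundant transcripts of steady-state P-SSCs, measured 7623, 9787 and 6580 FPKM in the steady-state libraries and 1237, 1461 and 1287 FPKM in the graft libraries. Ogn (osteoglycin) fell from 302 ± 39.3 to 73.3 ± 11.9 FPKM, and Podn (podocan) measured 32.8, 30.9 and 149 FPKM in the steady-state libraries and 4.95, 4.92 and 6.61 FPKM in the graft libraries, with P-SSC replicate 3 far above the others. Wisp1 (CCN4) rose from 12.2 ± 3.07 to 57.6 ± 10.1 FPKM and Lgals1 (galectin 1) from 1942 ± 545 to 5113 ± 268 FPKM. Postn rose by 0.92 ± 0.13 (SE) on the log2 scale but did not hold, as with median of ratios scaling its change was 0.70 (adjusted p = 0.0504). Of the 2 genes for collagens and collagen processing compared, the enzyme gene P4ha1 held. The collagen gene Col6a3, also in the ECM-receptor list, did not (log2 change 0.82). Of 14 integrin and adhesion genes 1 rose and 4 fell (7.14% and 28.6%, 3 and 4 without P-SSC replicate 3 and 0 and 3 with median of ratios scaling), among them Bcam and Cadm3, which fell from 17.1 ± 7.11 to 1.95 ± 0.133 FPKM.

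Of 40 actin, myosin and muscle genes that the table listed, 23 were compared, and 9 rose and 4 fell (39.1% and 17.4%, against 22.6% and 12.9% of all genes, median log2 change 0.92), of which 5 and 4 held. With median of ratios scaling 5 and 4 were called, and 15 and 4 were called without P-SSC replicate 3. Pfn1 (profilin 1), which delivers actin to growing filaments, measured 132, 217 and 513 FPKM in the steady-state libraries and 1253, 1324 and 1233 FPKM in the graft libraries. P-SSC replicate 3 was the nearest to the graft libraries. Actg2, an actin of smooth muscle, rose from 1.94 ± 2.68 to 31.3 ± 3.13 FPKM. Vim (vimentin) rose from 1663 ± 162 to 3131 ± 97.3 FPKM and Lasp1 from 438 ± 58.7 to 699 ± 76.6 FPKM, and neither held. Stmn1, which takes microtubules apart and is high in dividing cells, measured 9.44, 13.2 and 12.6 FPKM in the steady-state libraries and 126, 140 and 125 FPKM in the graft libraries and was 1 of 3 that rose among 19 tubulin, kinesin and dynein genes, with none lower (15.8% and 0%). Of these, 4 were lower at an unadjusted p under 0.05 in limma and 0 were called lower with voom, while 3 (Dynlrb1, Dctn2 and Ttll1) were called lower without P-SSC replicate 3 and 1 (Map1b) with median of ratios scaling.

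Of 10 TGF-β and BMP genes compared, 1 rose and 2 fell (10% and 20%), 5 and 2 without P-SSC replicate 3 and 0 and 2 with median of ratios scaling. The median log2 change of this list was 0.13, and 0.88 without P-SSC replicate 3. Id3, a target of BMP signals, measured 1679, 2230 and 936 FPKM in the steady-state libraries and 437, 482 and 537 FPKM in the graft libraries, Kcp is described above, and Gdf15 rose from low levels (log2 change 0.99, named after its value was seen) and did not hold. Of 17 Wnt, Hedgehog and Notch genes 1 rose and 2 fell (5.88% and 11.8%), and 8 and 2 without P-SSC replicate 3, where the median log2 change went from 0.17 to 0.47. Dkk2, a Wnt antagonist, fell from 19.2 ± 10.4 to 3.36 ± 0.712 FPKM, Disp1, which releases Hedgehog ligands, fell from 37.7 ± 6.89 to 13.9 ± 0.888 FPKM, and Dlk1, a relative of the Notch ligands, rose from 0.798 ± 0.702 to 6.32 ± 3.4 FPKM. Of 15 growth factor and receptor genes 2 rose and 2 fell (13.3% each), 5 and 3 without P-SSC replicate 3 and 1 and 4 with median of ratios scaling. Ntf3 (neurotrophin 3) measured 15, 8.52 and 6.76 FPKM in the steady-state libraries and 0.0803, 0.0666 and 0.198 FPKM in the graft libraries, and Egfr, the EGF receptor, fell from 97.6 ± 17.3 to 46.5 ± 3.92 FPKM. The semaphorin receptor Plxnb2 rose from 71.9 ± 21.6 to 139 ± 10.6 FPKM, and the EGF receptor ligand Hbegf rose by a log2 change of 1.51 and did not hold.

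Of 6 osteoblast genes compared, 1 rose and none fell (16.7% and 0%, against 22.6% and 12.9% of all genes). The gene that rose was Runx1, a relative of the master factor of bone. Runx1 measured 0.585, 0.651 and 2.82 FPKM in the steady-state libraries and 25.2, 19.8 and 20.6 FPKM in the graft libraries. Ank and Bambi were called higher as well and Kazald1 lower without P-SSC replicate 3. Of 6 cartilage genes 1 rose and 3 fell (16.7% and 50%). Csgalnact1, which starts chondroitin sulphate chains, measured 11.3, 5.76 and 2.99 FPKM in the steady-state libraries and 80.1, 79.2 and 82.6 FPKM in the graft libraries, and Cilp, a protein of the cartilage intermediate layer, fell from 332 ± 61.7 to 134 ± 19.3 FPKM. Of 8 genes of tendon and periosteal fibroblasts 1 rose and 4 fell (12.5% and 50%, median log2 change -1.48, 2 and 5 without P-SSC replicate 3 and 0 and 4 with median of ratios scaling), the latter being Islr, Ackr3, Ackr4 and Cilp. Of 6 fat cell genes 2 rose and 3 fell (33.3% and 50%, and 1 and 3 with median of ratios scaling), among them Zfp423, a factor of preadipocytes, which fell from 36.9 ± 10.4 to 9.46 ± 1.19 FPKM. None of the 4 niche factors for blood stem cells that were compared passed the test in limma, with 1, Il15, lower at an unadjusted p under 0.05 and 0 called with voom. Cxcl12 and Kitl, the niche factors that the study followed, were not among the 4, so these counts do not cover them. Without P-SSC replicate 3, Gas6 was called higher and Il15 and Trf lower, and with median of ratios scaling Il15 was called lower. Of 6 Hox and homeobox genes none rose and 1 fell (0% and 16.7%). The gene that fell was Hoxa10 (log2 change -2.26 ± 0.55 (SE), limma adjusted p = 0.0216), and 2 of the 6 were called higher and 1 lower without P-SSC replicate 3.

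Of 75 zinc finger and Krüppel-like transcription factors that the table listed, 38 were compared, and 1 rose and 9 fell (2.63% and 23.7%, against 22.6% and 12.9% of all genes), with a median log2 change of -0.31, or -0.47 with median of ratios scaling. When P-SSC replicate 3 was left out, 7 were called higher and 11 lower. Zbtb20 measured 57.1, 24 and 39.3 FPKM in the steady-state libraries and 6.8, 5.44 and 5.37 FPKM in the graft libraries, and no graft library reached a steady-state one. Zfp9 was the one that rose, from 4.13 ± 0.99 to 11.1 ± 0.71 FPKM.

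Antioxidant and detoxification genes fell in part. Of 18 that the table listed, 15 were compared, and 5 rose and 7 fell (33.3% and 46.7%, median log2 change -0.52), of which 3 and 7 held. The flavin monooxygenases Fmo2 and Fmo5 and the cytochrome P450 Cyp2f2 fell from 30.9 ± 38.5 to 0.313 ± 0.162 FPKM, from 15.9 ± 2.35 to 1.93 ± 0.545 FPKM and from 33.6 ± 26.4 to 1.29 ± 0.721 FPKM. Fmo2 at steady state rested much on P-SSC replicate 3, which measured 75.3 FPKM against 9.07 and 8.21 in the others, and its log2 change was -3.88 with that library and -2.88 without it. With voom Fmo2 was not called (adjusted p = 0.0506). Gpx3, the secreted glutathione peroxidase, which the glutathione list also holds, fell from 4631 ± 1158 to 1858 ± 92.3 FPKM, while Hmox1 rose and Prdx1, a peroxiredoxin, rose from 671 ± 141 to 1132 ± 41.3 FPKM without holding. Of 18 lysosome and autophagy genes 1 rose and 3 fell (5.56% and 16.7%), 7 and 3 without P-SSC replicate 3 and 0 and 6 with median of ratios scaling. Lgmn, a lysosomal protease, rose from 39.3 ± 13.4 to 77.1 ± 10.3 FPKM without holding, and Gpnmb and Atg7 were among those that fell, Atg7 from 47 ± 2.46 to 30.3 ± 1.13 FPKM.

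Of 9 p53 target and cell death genes compared, 5 rose and 1 fell (55.6% and 11.1%, and 6 and 2 without P-SSC replicate 3). Ckap2, a spindle protein that the cell cycle list also holds, rose from 0.203 ± 0.289 to 23.8 ± 2.47 FPKM, and the apoptosis genes Casp6, Aifm1 and Bax rose by 1.73, 1.13 and 0.49 on the log2 scale, of which Bax did not hold. Bcl2l1, which protects from apoptosis, fell from 21.2 ± 5.03 to 11.1 ± 0.525 FPKM. The p53 target Cdkn1a (p21), which is not counted among the named genes, had 9520, 6220 and 4703 fragments in the steady-state libraries. In the graft libraries Cdkn1a had 2253, 2262 and 2146 fragments. Cdkn1a was picked after its values were seen. Of 14 DNA repair genes 6 rose and 1 fell (42.9% and 7.14%, median log2 change 1.13, and 10 and 2 without P-SSC replicate 3). Tdg, a DNA glycosylase, measured 6.11, 6.29 and 13.3 FPKM in the steady-state libraries and 48.2, 43.4 and 43.1 FPKM in the graft libraries, Recql and Apex2 rose by 1.17 and 1.10 on the log2 scale, and the nuclease Mus81 had a log2 change of -1.16 ± 0.23 (SE) and fell. Of 22 histone and chromatin genes 5 rose and 3 fell (22.7% and 13.6%, close to 22.6% and 12.9% of all genes), and 9 and 6 without P-SSC replicate 3. Dnmt1, which copies DNA methylation, rose from 12.8 ± 2.48 to 36.5 ± 3.39 FPKM, Hmgn2 from 95.5 ± 18.9 to 246 ± 7.79 FPKM, Hmgb1 from 266 ± 45.4 to 523 ± 25.4 FPKM and Hdac2 by 2.84 on the log2 scale.

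Of 25 solute carriers 6 rose and 5 fell (24% and 20%), 11 and 6 without P-SSC replicate 3 and 5 and 8 with median of ratios scaling. Slc41a2, a magnesium transporter, rose from 7.08 ± 3.82 to 50 ± 3.63 FPKM, Slc31a1, which takes up copper, from 7.75 ± 1.18 to 27.3 ± 0.989 FPKM, and Slc3a2, a partner of amino acid transporters, from 135 ± 37.1 to 239.9 ± 15.4 FPKM without holding. Slc43a3, which moves purine bases, measured 518, 652 and 493 FPKM in the steady-state libraries and 128, 132 and 156 FPKM in the graft libraries and fell. Of 25 genes for splicing and RNA processing 6 rose and 2 fell (24% and 8%, 11 and 2 without P-SSC replicate 3 and 4 and 3 with median of ratios scaling), among them Cstf3, Thoc3, Hnrnpdl and Hnrnpk with log2 changes of 1.94, 1.73, 1.55 and 0.88. Of the genes compared 1228 were in no list, and they held 198 of the 330 genes that held as higher and 140 of the 224 that held as lower.

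**Figure D4:**
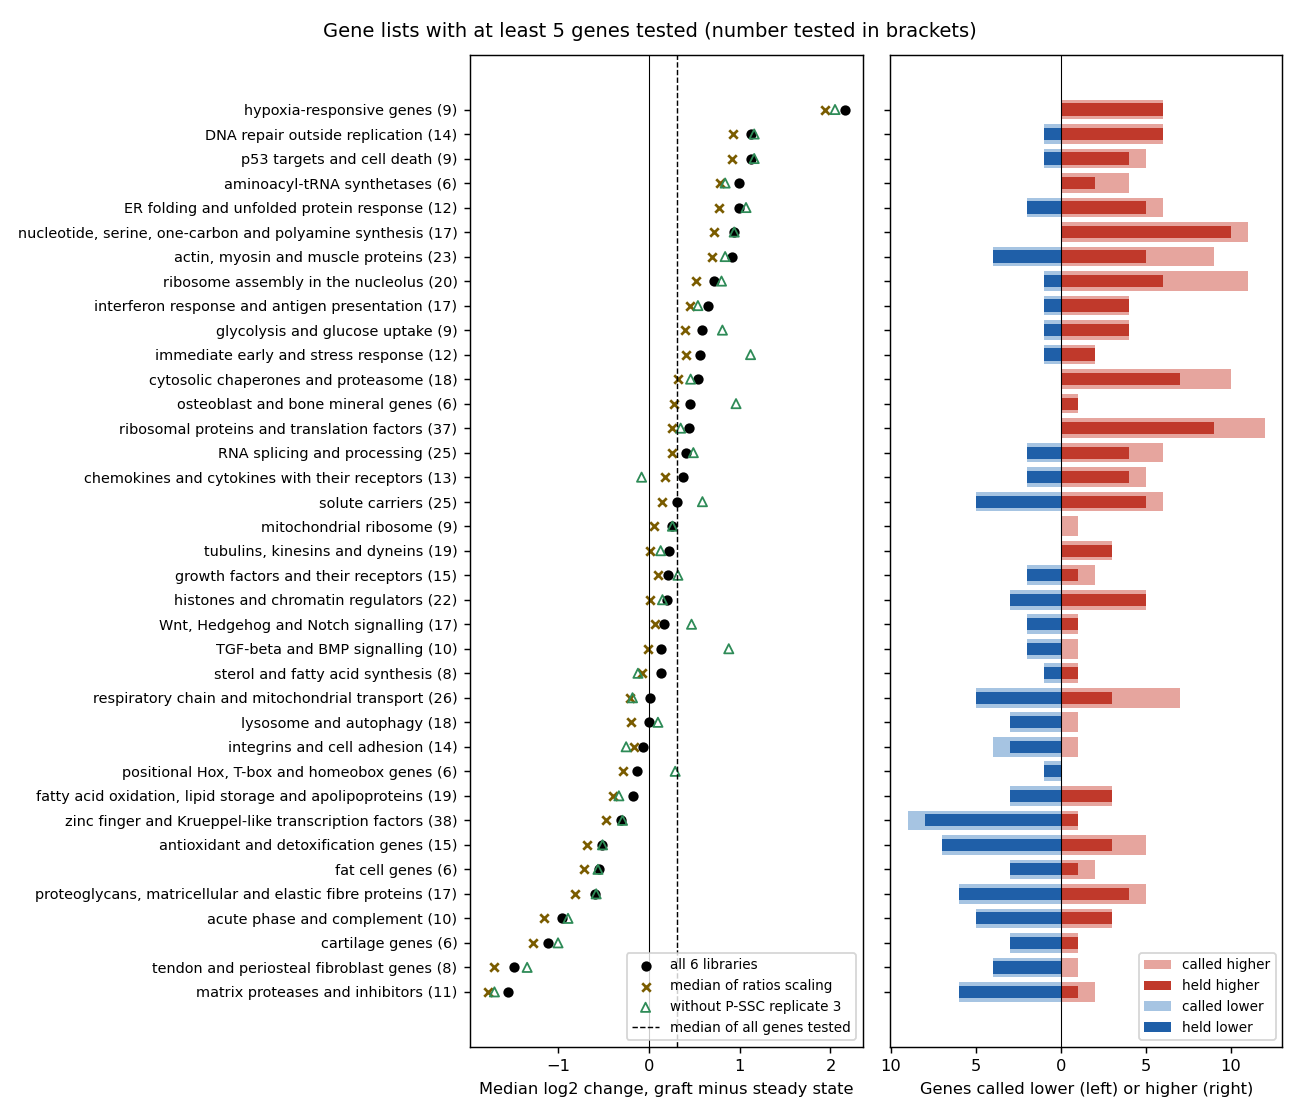
Median log2 change (left) of the gene lists with at least 5 genes compared, with all 6 libraries (dots), median of ratios scaling (crosses) and without P-SSC replicate 3 (triangles), and the number of their genes called (pale bars) and held (dark bars) as lower or higher (right). Hypoxia-responsive genes stand at the top with a median of 2.16 and matrix proteases and inhibitors at the bottom with -1.55, and the dashed line is the median of all genes, 0.31.

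Without P-SSC replicate 3, 1044 genes were called (713 higher and 331 lower), 639 of the 642 calls remained in the same direction, and 405 genes were added. Sfrp2, a secreted modulator of Wnt signals, measured 42.7, 55.1 and 1551 FPKM in the steady-state libraries and 994, 1097 and 880.3 FPKM in the graft libraries, so that replicate 3 lay above the graft libraries and the others far below. Hnrnpab, an RNA-binding protein, measured 1.83, 1.07 and 80.3 FPKM in the steady-state libraries and 197, 198 and 76.2 FPKM in the graft libraries. Gas6, a ligand of the TAM receptors, measured 10.8, 9.13 and 432 FPKM in the steady-state libraries and 22.3, 20.8 and 23.7 FPKM in the graft libraries, and Cilp2 2.29, 2.26 and 124 FPKM in the steady-state libraries and 0.0917, 0.217 and 0.168 FPKM in the graft libraries. These 4 genes, named after their values were seen, did not pass the test with all 6 libraries, and the direction of Gas6 differed with and without replicate 3 (log2 changes -0.68 and 1.09).

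**Figure D5:**
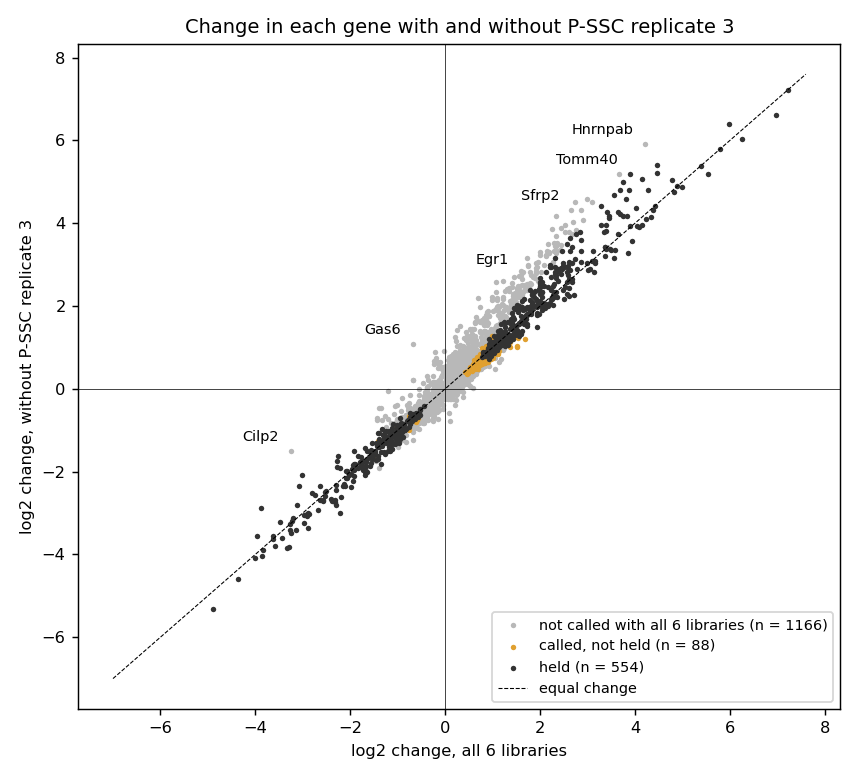
log2 change of each gene with all 6 libraries (x axis) and without P-SSC replicate 3 (y axis). The 554 genes that held (dark) kept their direction, but some lie off the line of equal change. Examples are Tomm40 (3.89 with all 6 libraries and 5.19 without P-SSC replicate 3) and Fmo2 (-3.88 and -2.88). Genes such as Hnrnpab, Sfrp2 and Gas6, which were high in P-SSC replicate 3 and did not hold, lie above the line.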

How the data were processed

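Per the labels and the study's methods, poly(A) RNA of sorted cells was sequenced on a NovaSeq6000, and reads went through CASAVA, fastp, STAR 2.6.1d (GRCm38) and featureCounts 1.5.0-p3. The annotation release and the use of strand in counting are not given in the sources used here, so antisense partners cannot be told apart. The authors deposited FPKM, unrounded and with no further scaling between libraries.

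FPKM were changed to log2(FPKM + 1). Genes at 1 FPKM or more in at least 3 of the 6 libraries were fitted with limma 3.58.1 (lmFit, eBayes with a trend, two-sided) in R 4.3.3 and adjusted over all 1808 genes. Whole fragments and library totals were recovered from the steps of the FPKM for every gene above 0. The design assumed this unit. The number of libraries limits precision, and p-values cover the spread between samples.

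The genes compared, the gene lists and the promoter motifs were chosen with earlier results of these data known. Genes named are 6 set by the comparison, the 15 largest increases and decreases outside the cell cycle, ECM-receptor and glutathione lists that held without overlap and reached a group mean of 10 FPKM, up to 4 such genes and the 2 most abundant others per list, and the highest marker of each cell type. Pdk4, Mthfd1, Hprt, Amd1, mt-Tm, Slc25a27, Slc25a21, Derl1, Ddit3, Edem2, Plau, Cd59a, C5ar1, Lif, Csf1r, Oas2, Slfn9, Adamts4, Gdf15, Hbegf, Prdx1, Lgmn, Il15, Trf, Oaz1, Rps27rt, Dynlrb1, Dctn2, Ttll1, Map1b, Ank, Bambi, Kazald1 and the markers below the highest were named after their values were seen. Some genes that this rule names are not reported here. Alternatives changed scaling, pseudocount, filter, libraries and variance model, and the procedures were tested on simulated data.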

Additional observations from a re-analysis of the deposited data

How the results depend on the processing

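Quantile normalization turned the balance of calls, to 287 higher and 344 lower. No named gene that was called changed sign under any of the 18 alternatives, 16 of them planned and voom on recovered fragments (637 calls) and the joint setting below added after the data were seen. Of 177 named genes that were called, 122 kept call and direction in all of them. With voom, Fmo2, Pdk4, mt-Tm, Bax, Mbp and Gdf15 lost their call. Gas6, which was not called, had a log2 change of -0.68 with all 6 libraries, 0.71 with library weights, 1.09 without P-SSC replicate 3, 0.79 with median of ratios scaling and without that replicate, and -1.62 to 1.09 over the fits that left out 1 library. Lyz2, which was not called either, had 0.32, and -0.02 with quantile normalization and -0.35 to 0.78 over the fits that left out 1 library. H2-Aa and Oaz1, also not called, had 0.23 and -0.17, and -0.21 and 0.11 with quantile normalization, and H2-Aa had -0.31 with library weights, -0.49 with median of ratios scaling and without P-SSC replicate 3, and -0.27 to 0.98 over the fits that left out 1 library. Against 642 genes, 409 higher and 233 lower, library weights gave 1130 (739 and 391), and median of ratios scaling without P-SSC replicate 3 gave 1038 (587 and 451). Leaving out 1 library gave 369 to 1044 genes, 237 to 713 higher and 132 to 331 lower: 382 without graft replicate 1, 369 without graft replicate 2, 381 without graft replicate 3 and 1044 without P-SSC replicate 3. Those fits rest on fewer samples. The replicate numbers did not pair the libraries, as same-numbered libraries' deviations from their group means correlated at -0.277, -0.0941 and -0.445, and the replicate block gave 468 genes (309 higher and 159 lower). The table holds part of the transcriptome, and 65 genes passed the filter through graft libraries only and 49 through steady-state libraries only.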

Other observations

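Genes of a few other kinds changed that the lists did not hold, and they are named here because of their values. Snai1, a transcription factor that loosens contacts between cells, measured 4.06, 5.97 and 4.06 FPKM in the steady-state libraries and 22.9, 25.9 and 32.3 FPKM in the graft libraries, and Cav1, the coat protein of caveolae, 220.1, 135 and 262 FPKM in the steady-state libraries and 659, 753 and 703 FPKM in the graft libraries. Both rose, by 2.30 ± 0.24 and 1.82 ± 0.25 (SE) on the log2 scale (limma adjusted p = 0.00108 and 0.00262), and Ets1 rose from 3.86 ± 3.48 to 15.5 ± 1.62 FPKM. A pair of genes for cholesterol handling rose as well: Tmem97 from 38.8 ± 11.9 to 185 ± 12.7 FPKM and Soat1, which esterifies cholesterol, from 5.42 ± 1.21 to 49.7 ± 3 FPKM. In the other direction, Tlr2, a receptor for bacterial lipoproteins, measured 31.5, 22 and 19 FPKM in the steady-state libraries and 3.62, 3.89 and 4.54 FPKM in the graft libraries, and Nupr1, a stress-induced nuclear protein, 557, 555 and 374 FPKM in the steady-state libraries and 119, 137 and 129 FPKM in the graft libraries. Duox1, which makes hydrogen peroxide, fell from 29.1 ± 2.93 to 7.07 ± 0.719 FPKM, and C1qtnf1, a secreted relative of adiponectin, from 268 ± 54.8 to 32.9 ± 2.19 FPKM. All of these held, and the groups did not overlap in any of them.

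Some transcripts are often read as signs of the state or source of a sample. Malat1, a nuclear long non-coding RNA, measured 40, 28 and 26.9 FPKM in the steady-state libraries and 2.76, 3.14 and 4 FPKM in the graft libraries, a log2 change of -2.91 ± 0.25 (SE), adjusted p = 0.000495. Mbp, a protein of the myelin sheath, measured 7.79, 27.8 and 108 FPKM in the steady-state libraries and 2.83, 2.59 and 2.79 FPKM in the graft libraries, so that the steady-state libraries differed among themselves more than the graft libraries did. Pmp22 fell from 909 ± 105 to 216 ± 4.98 FPKM. Kdm5d, the Y-linked gene that was compared, fell from 2.81 ± 0.626 to 0.991 ± 0.277 FPKM, and the labels do not give the sex of the mice.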
